A study of Mus musculus with 59 samples.

Results

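Mir17hg (ENSMUSG00000089726) is the mouse host transcript of the miR-17-92 cluster, and Mir19b-1 (ENSMUSG00000076256) is 1 of the 6 microRNA hairpins of that cluster. Both genes were taken by identifier, as 2 of the 39017 genes in the deposited RNA tables, and followed over all 35 RNA libraries. In the chromatin tables, whose unit is a 5 kb window, the 2 windows that overlap the Mir17hg span and 10 windows on each side were taken, 22 of 546202 windows, and followed over 24 libraries. All cells were mouse embryonic stem (ES) cells of a 129xC57Bl6 hybrid line.

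Cells labelled Rosa26:CRE, DGCR8 Flox/Flox and cells labelled Drosha Flox/Flox were left untreated or given 0.5 µM 4-hydroxytamoxifen (4OHT) for 24, 48 or 96 h, with 2 libraries per group and 1 for Drosha with 4OHT at 96 h (23 RNA libraries). 4OHT activates a tamoxifen-dependent Cre, and the labels name a Cre for the DGCR8 line only. The other 12 RNA libraries came from Rosa26:BirA, DGCR8 FLAG/Avi cells (parental 1 and 2) and 4 lines that also carried METTL3KO (1d1, 3xU, 1d2 and 2c4d), each kept at 37 °C or held for 1 h at 42 °C. Chromatin was pulled down with streptavidin from cells that carry the biotin ligase BirA and a FLAG/Avi tag on DGCR8, DROSHA, DICER or METTL3. A DGCR8 precipitate also came from Mettl3 knockout cells. DGCR8 and METTL3 were also pulled down after 1 h at 42 °C, and all other chromatin was from 37 °C. Input chromatin came from the tagged lines and, for DROSHA and DICER, from untagged Rosa26:BirA cells. The labels do not say whether libraries of 1 group came from separate cultures or whether the knockout lines arose independently, so p-values measure the spread between these libraries, which may be technical.

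MicroRNAs are cut out of long primary transcripts in the nucleus. The Microprocessor, made of the RNase DROSHA and the RNA-binding protein DGCR8, frees the hairpin, and DICER trims it in the cytoplasm to the mature strand, whose seed, bases 2 to 8, pairs with target messenger RNAs. When the Microprocessor is missing, primary transcripts that would have been cut can accumulate. METTL3 is the catalytic subunit of the methyltransferase that places N6-methyladenosine on RNA. The miR-17-92 cluster is known as an oncogenic cluster driven by MYC and E2F factors, and ES cells express it together with the miR-290 cluster.

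In RefSeq (GRCm38.p6, the assembly known as mm10) the transcript runs over chr14:115044390-115046728 on the plus strand, 2339 bases annotated as a long noncoding RNA gene. The hairpins lie before and across its start in the order Mir17, Mir18, Mir19a, Mir20a, Mir19b-1 and Mir92-1, from 115043671 to 115044506. Mir19b-1 lies at 115044305 to 115044391, so its last bases overlap the RefSeq start and only Mir92-1 falls inside the RefSeq transcript. The deposited RNA tables give Mir17hg an exonic width of 3536 bases, longer than the RefSeq model. The 6 guide strands fall into 4 seed groups. They are shown because these are the products whose precursors are measured here. Seeds are in capitals, 5′ to 3′, from the RefSeq table.
mmu-miR-17-5p: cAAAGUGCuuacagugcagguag
mmu-miR-20a-5p: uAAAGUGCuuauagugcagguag
mmu-miR-18a-5p: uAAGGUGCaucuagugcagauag
mmu-miR-19a-3p: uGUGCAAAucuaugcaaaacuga
mmu-miR-19b-3p: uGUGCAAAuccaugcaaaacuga
mmu-miR-92a-3p: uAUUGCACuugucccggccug
The seed AAAGUGC of miR-17 and miR-20a is shared by 7 mature microRNAs of the RefSeq table. Among the others are miR-106a and miR-106b of the paralogous clusters, and the miR-290 cluster carries a seed shifted by 1 base.
mmu-miR-106a-5p: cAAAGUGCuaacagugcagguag
mmu-miR-106b-5p: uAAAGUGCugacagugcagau
mmu-miR-294-3p: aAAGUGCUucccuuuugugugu
The seed GUGCAAA is carried by miR-19a and miR-19b alone among the mature microRNAs of that table. The Mir19b-1 hairpin is the unit that the second gene counts, with both mature strands in capitals.
Mir19b-1 hairpin: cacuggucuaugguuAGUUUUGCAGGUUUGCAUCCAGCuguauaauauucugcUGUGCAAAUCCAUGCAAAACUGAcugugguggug
The stretch chr14:115044140-115044439 on the plus strand shows that the Mir20a and Mir19b-1 hairpins follow each other and that the RefSeq transcript begins near its end. Capitals mark the mature strands of both hairpins.
Mir17hg upstream stretch: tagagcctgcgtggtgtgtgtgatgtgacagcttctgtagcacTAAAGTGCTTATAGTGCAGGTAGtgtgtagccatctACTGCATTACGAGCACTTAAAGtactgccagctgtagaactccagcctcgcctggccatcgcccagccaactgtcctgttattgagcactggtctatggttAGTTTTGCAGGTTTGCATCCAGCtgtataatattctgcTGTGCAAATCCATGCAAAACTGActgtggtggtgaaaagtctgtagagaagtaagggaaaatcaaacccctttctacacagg

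Library totals, in units of 1e6 counts, ran from 9.58 to 12.6 in the floxed lines and from 7.10 to 13.6 in the heat set. Titles and source names disagreed for 12 of the 23 floxed libraries, and titles, which match the column names, were followed. Under the titles Drosha, the targeted RNase gene, fell from between 82.4 and 126 counts per 1e6 counts (CPM, scaled by the trimmed mean of M values) in controls of its line to between 23.4 and 29.1 in the libraries labelled 4OHT. Dgcr8 was higher, not lower, in the libraries labelled 4OHT of the DGCR8 line (223 to 289 CPM, against 105 to 145), and counts over the whole gene cannot show loss of floxed exons. Dgcr8 also rose in the Drosha line, by 1.84, 1.86 and 1.38 on the log2 scale at 24, 48 and 96 h (edgeR adjusted p below 0.05 at each time). The 8 ES cell markers summed to between 2275 and 4154 CPM in all 23 libraries. Markers of fibroblasts summed to at most 7.26 CPM in the DGCR8 line and 46.3 CPM in the Drosha line. The mitochondrial ribosomal RNA mt-Rnr2 took 27.1% of counts in 1 DGCR8 4OHT library at 96 h (replicate 1) and 21.3% in the Drosha 4OHT library at 96 h, against 9.55% to 15.4% elsewhere.

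Mir17hg was higher in every library labelled 4OHT than in every control of the same line from the first time point on. Over the 3 times it averaged 322 ± 37.9 CPM in the DGCR8 line with 4OHT and 79.6 ± 10.1 CPM without (SD, n = 6 each). In the DGCR8 line the controls held 89.6 and 62.97 CPM at 24 h, 86.6 and 73.9 CPM at 48 h, and 86.4 and 77.9 CPM at 96 h. The libraries labelled 4OHT held 338 and 369 CPM at 24 h, 321 and 322 CPM at 48 h, and 327 and 253 CPM at 96 h. The lowest treated library thus lay well above the highest control. The log2 fold change was 2.22 ± 0.18 (SE) at 24 h (edgeR quasi-likelihood test, adjusted p = 0.00167), when 0.100% of the 14973 genes tested were called higher (adjusted p below 0.05). It was 2.02 ± 0.18 at 48 h (edgeR adjusted p = 0.000675; 1.32% of genes called higher) and 1.82 ± 0.18 at 96 h (edgeR adjusted p = 0.000418; 8.40% called higher). Mir17hg ranked 19th, 30th and 151st from the top by fold change at the 3 times. The values measure RNA over all cells of a culture, so more RNA per cell and more cells that make it cannot be told apart.

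The Drosha line started from a lower level and rose by a similar factor. Its controls held 53.9 and 56.3 CPM at 24 h, 53.4 and 51.3 CPM at 48 h, and 56.5 and 88.4 CPM at 96 h. The 4OHT libraries held 231 and 260 CPM at 24 h, 174 and 235 CPM at 48 h, and 328 CPM at 96 h. As in the DGCR8 line, the 2 sets of libraries did not overlap, although 1 control at 96 h lay above the others. The log2 fold change was 2.16 ± 0.18 at 24 h (edgeR adjusted p = 2.3e-05), 1.96 ± 0.18 at 48 h (edgeR adjusted p = 6.8e-05) and 2.18 ± 0.20 at 96 h (edgeR adjusted p = 1.1e-05). The shares of the 16262 genes tested that were called higher were 0.154%, 2.45% and 12.7%. The 96 h value rests on 1 treated library, and leaving out either control moved it between 1.88 and 2.54.

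**Figure D1:**
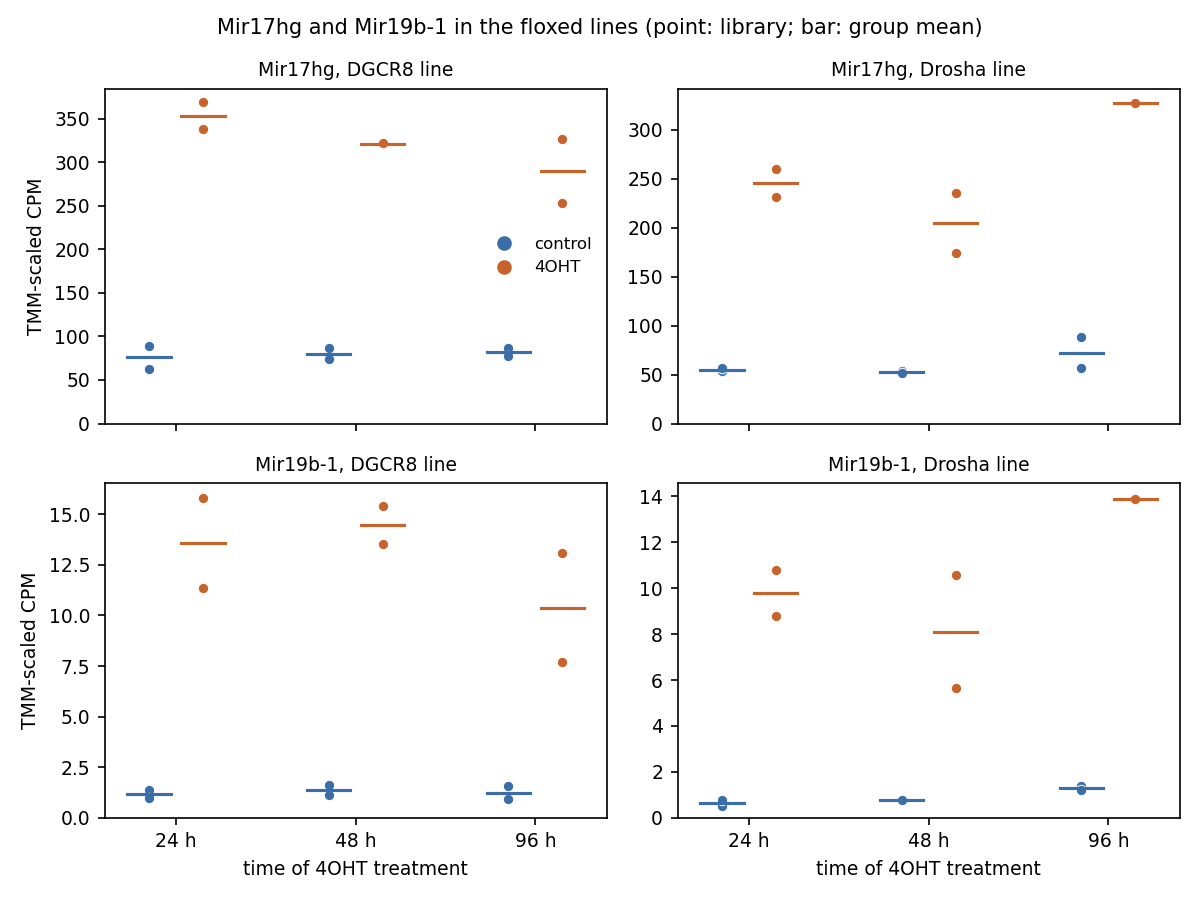
TMM-scaled CPM of Mir17hg (upper row) and Mir19b-1 (lower row) against the time of 4OHT treatment in the DGCR8 line (left) and the Drosha line (right); each point is a library and each bar a group mean, and each panel has its own axis from 0. In every panel the treated libraries lie above the controls at all 3 times, from 253 to 369 CPM against 62.97 to 89.6 CPM for Mir17hg in the DGCR8 line.

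No difference between times or lines in the size of the rise was called. In the DGCR8 line the 48 h effect minus the 24 h effect was -0.20 ± 0.25 and the 96 h effect minus the 24 h effect -0.39 ± 0.25 on the log2 scale. In the Drosha line these differences were -0.20 ± 0.25 and 0.02 ± 0.27. The DGCR8 line effect minus the Drosha line effect was 0.06 ± 0.27, 0.04 ± 0.27 and -0.36 ± 0.30 at 24, 48 and 96 h. Of all genes tested 0% and 0.187% were called between times in the DGCR8 line, 0% and 11.6% in the Drosha line, and 0.00602%, 0.00602% and 0.181% between lines. Errors of this size do not show that the effects were alike. Untreated cells did differ: controls of the Drosha line averaged 59.96 ± 14.1 CPM (SD, n = 6), below the mean of the DGCR8 line given above, a log2 difference of 0.42 ± 0.11 (edgeR adjusted p = 0.00522). Of the 16606 genes tested 48.7% were called between these 2 untreated lines, so the line and all that differs with it cannot be told apart.

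Mir19b-1 rose more steeply than its host. Controls of the DGCR8 line held 0.94 to 1.64 CPM, with 1.36 and 0.97 CPM at 24 h, and libraries labelled 4OHT held 7.68 to 15.8 CPM, with 11.4 and 15.8 CPM at 24 h. Drosha-line controls held 0.51 to 1.40 CPM and 4OHT libraries 5.65 to 13.9 CPM. No treated library came within reach of a control in either line. The log2 fold changes were 3.55 ± 0.36, 3.38 ± 0.35 and 3.04 ± 0.36 in the DGCR8 line at 24, 48 and 96 h and 3.92 ± 0.36, 3.35 ± 0.37 and 3.40 ± 0.36 in the Drosha line, with edgeR adjusted p from 3.1e-05 to 0.0034. At 24 h in the DGCR8 line the call was lost when either control was left out, at log2 fold changes of 3.33 and 3.79. At 96 h in that line the call was kept in 10 of 11 alternative fits.

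All 6 hairpin genes of the cluster were higher in the treated libraries in all 6 comparisons. In the DGCR8 line 4, 5 and 6 of the 6 were called at 24, 48 and 96 h, beside 0.100%, 1.32% and 8.40% of all genes called higher. In the Drosha line 4, 6 and 5 of the 6 were called, beside 0.154%, 2.45% and 12.7%. Leaving out either treated library of the DGCR8 line at 96 h left 6 of 6 called. Mir17, which opens the cluster, rose by 2.96 to 4.43 on the log2 scale and was called in all 6 comparisons. Mir92-1, which closes it and lies within the RefSeq transcript, rose by 1.58 to 2.22 and was also called in all 6. Mir20a rose by 2.95 to 3.79 where it was called (5 of 6 comparisons), and Mir19a by 1.66 to 3.05 (5 of 6). Mir18 was called in 2 comparisons, DGCR8 at 96 h (3.90) and Drosha at 48 h (3.43), and in the other comparisons its log2 fold changes ran from 1.52 to 3.84. Hairpin genes are short and hold few reads, which widens their errors beside those of the host.

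**Figure D2:**
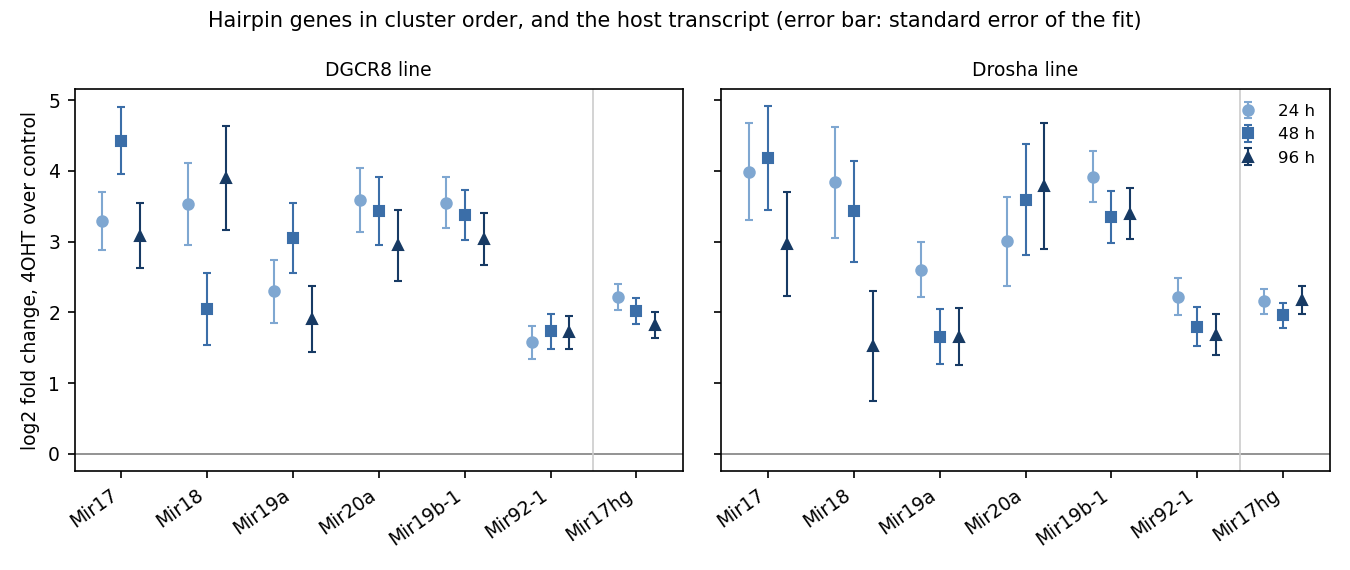
Log2 fold change of 4OHT over control for the 6 hairpin genes in cluster order and for the host Mir17hg, at 24, 48 and 96 h, in the DGCR8 line (left) and the Drosha line (right); error bars are standard errors of the edgeR fit. All points lie above 0, with the host between 1.82 and 2.22 and Mir19b-1 between 3.04 and 3.92.

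The hairpins also gained reads relative to their host. Reads per base over the 536 bases of the 6 hairpins, divided by reads per base over Mir17hg, ran from 0.517 to 0.730 (median 0.637, 6 libraries) in controls of the DGCR8 line and from 0.759 to 0.932 (median 0.905, 6 libraries) in the libraries labelled 4OHT. In the Drosha line the ratio ran from 0.532 to 0.701 (median 0.614, 6 libraries) and from 0.744 to 0.968 (median 0.854, 5 libraries). The ranges did not overlap in either line. The mean log2 difference was 0.49 in the DGCR8 line and 0.43 in the Drosha line (exact permutation tests within time points, two-sided, p = 0.00926 each, the smallest that 216 and 108 arrangements can give, adjusted p = 0.0185 over 6 tests). For Mir19b-1 alone the ratio moved from between 0.488 and 0.903 to between 1.23 and 1.95 in the DGCR8 line. In the Drosha line it moved from between 0.386 and 1.00 to between 1.32 and 1.90 (exact permutation adjusted p = 0.0185 and 0.0278). Whether the Mir17hg counts include reads of the hairpins was not given in the sources used here, and the measure was chosen after the counts were seen. Without the 96 h libraries the mean log2 differences were 0.50 and 0.60, where 0.0556 is the smallest p possible.

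The genes whose 6 fold changes lay nearest to those of Mir17hg were themselves mostly microRNA hosts or hairpins. Likeness was the root mean square difference of the log2 fold changes over the 6 comparisons, among the 11311 genes whose mean log2 CPM reached 2. The nearest was C130071C03Rik (0.306), which holds Mir9-2 in RefSeq, followed by E130102H24Rik (0.347), which holds Mir101a. Next came Mir92-1 of the cluster itself (0.359), then Mir290a (0.413) and Mir293 (0.474) of the miR-290 cluster. Of the list of other primary microRNA transcripts, 2, 2 and 3 of 8 tested were called higher in the DGCR8 line, beside 0.100%, 1.32% and 8.40% of all genes. In the Drosha line it was 3, 3 and 5 of 11, beside 0.154%, 2.45% and 12.7%, and Meg3 was called lower at 96 h (-1.04). Mir22hg, the host of miR-22, rose by 1.82, 1.72 and 1.66 in the DGCR8 line and by 2.89, 3.07 and 2.87 in the Drosha line, and Mir290a was called in all 6 comparisons as well. H19, which holds miR-675, was called in none, with log2 fold changes from -0.18 to 0.50.

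The paralogous clusters carry related hairpins and share seeds with miR-17-92. Of their 11 listed genes 5 were tested in the DGCR8 line. Of these 0, 0 and 2 were called higher at 24, 48 and 96 h, beside 0.100%, 1.32% and 8.40% of all genes. In the Drosha line 8 were tested. There 1, 3 and 3 were called higher, beside 0.154%, 2.45% and 12.7% of all genes, and 0, 0 and 1 lower, beside 0.0307%, 0.369% and 11.0%. In the Drosha line Mir106a, the first hairpin of the X-linked cluster, rose by 5.01, 3.28 and 4.16 at 24, 48 and 96 h, and Mir92-2 of that cluster by 2.55 and 2.33 at 48 and 96 h. Mir106a had too few reads for a test in the DGCR8 line, where Mir92-2 rose by 2.92 at 96 h. Mir363 and Mir18b of that cluster were not called in any of the 6 comparisons, and ran from -1.35 to 0.86 and from -1.0 to 1.37. Mir20b of that cluster held 0 to 2 raw counts in Drosha-line controls and 10 to 22 in 4OHT libraries of that line. For Mir19b-2 these were 1 to 3 and 4 to 14. Kis2, known as the host of the X-linked cluster, was lower in the Drosha line at 96 h (-0.74, called) and within 0.42 of 0 in the other 5 comparisons, none called. Mcm7, a replication helicase gene that hosts the Mir106b-25 hairpins in an intron, rose by 0.51 in the DGCR8 line at 96 h and was called in no other comparison. None of the 4 tested neighbours on chromosome 14 (Gpc6, Slitrk5, Tgds and Gpr180) was called in any of the 6 comparisons. Of all genes 0.100%, 1.56% and 13.5% were called in either direction in the DGCR8 line at 24, 48 and 96 h. In the Drosha line it was 0.184%, 2.82% and 23.7%, so 0 of 4 is near the share of all genes at 24 and 48 h.

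Among 19 genes reported as targets of miR-17-92, 0 were called at 24 h in either line, near the share of all genes called higher then (0.100% and 0.154%). At 48 h 3 were called higher in the DGCR8 line and 5 in the Drosha line, beside 1.32% and 2.45% of all genes. At 96 h it was 9 in each, beside 8.40% and 12.7% of all genes. The median log2 fold change of the list was 0.14, 0.51 and 0.67 in the DGCR8 line and 0.06, 0.38 and 0.59 in the Drosha line, and that of all genes tested lay within 0.02 of 0. Leaving out either treated DGCR8 library at 96 h gave 10 of 19, beside 9.99% (without replicate 1) and 11.4% (without replicate 2) of all genes, and without replicate 2 there was 1 target called lower. Markers of other cells moved at 96 h too. In the Drosha line 3 of 6 primitive endoderm markers were called higher (list median 0.70), their sum ran from 46.6 to 107 CPM in 4OHT libraries of all times against 50.3 to 69.6 CPM in controls, and 3 of 8 ES cell markers were called lower and 1 higher. In the DGCR8 line 2 of 4 neuroectoderm markers were called higher (list median 0.73), with sums of 83.0 to 181 CPM against 68.2 to 110 CPM, and 1 of 8 ES cell markers was called lower. Of all genes 11.0% (Drosha line) and 5.08% (DGCR8 line) were called lower at 96 h, beside the shares called higher given above. A count of 1 in 8 is near such shares. The part of these markers in the changes of the targets was not tested. Some of these genes are also known targets of the miR-290 family, whose seed is given above.

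The targets that rose belong to several pathways. Tgfbr2, a TGF-β receptor, rose by 1.95 (DGCR8 line) and 1.60 (Drosha line) on the log2 scale at 96 h, and Thbs1, the secreted protein thrombospondin, by 1.42 and 0.86. Rbl2, a retinoblastoma family protein, rose by 1.63 and 0.99, while p21, the cyclin-dependent kinase inhibitor encoded by Cdkn1a, rose by 0.93 and 1.48. The phosphatase gene Phlpp2 rose by 1.22 and 1.45. The pro-apoptotic gene Bcl2l11 rose by 0.79 in the DGCR8 line and stood at 0.37 (not called) in the Drosha line. E2f1 was not called in any comparison, and Mapk14 fell by 0.43 in the Drosha line at 96 h. The list and its members were chosen with earlier results of these data known.

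Of the factors known to act on the Mir17hg promoter, the activator Myc was called at 96 h. It fell by 0.92 in the DGCR8 line and by 0.98 in the Drosha line. Of the 7 regulators tested 0 were called at 24 or 48 h in either line. Of all genes 0.100% and 1.56% (DGCR8 line) and 0.184% and 2.82% (Drosha line) were called in either direction then. So 0 of 7 is near the share of all genes. At 96 h Ccnd1 rose by 1.04 in the DGCR8 line and Mycn fell by 0.33 in the Drosha line. Of all genes 8.40% were called higher and 5.08% lower in the DGCR8 line at 96 h. In the Drosha line these shares were 12.7% and 11.0%.

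In the heat set Mir17hg was lower after 1 h at 42 °C in all 6 lines. Parental 1 went from 99.4 to 28.4 CPM (3.50-fold lower) and parental 2 from 31.1 to 9.61 CPM (3.23-fold lower). Among the knockout lines, 1d1 went from 56.1 to 34.7 CPM (1.62-fold lower), 3xU from 114 to 47.4 CPM (2.41-fold), 1d2 from 29.6 to 9.16 CPM (3.23-fold) and 2c4d from 23.0 to 6.65 CPM (3.46-fold). Levels at 37 °C also differed between lines: parental 1, 1d1 and 3xU held 56.1 to 114 CPM and parental 2, 1d2 and 2c4d 23.0 to 31.1 CPM. The former group has the lower sample numbers in the titles, so the line and any batch that goes with the numbering cannot be told apart. Parental 1 and parental 2 share a genotype, and the labels do not say whether they are separate lines. They are counted as separate lines here. The mean log2 change over the 6 lines was -1.49 (exact sign-flip permutation test, two-sided, p = 0.0312, the smallest that 6 lines can give, adjusted p = 0.0375 over 6 tests).

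With groups alone in the fit, the heat effect was not called: -1.79 ± 0.98 in parental cells (edgeR adjusted p = 1) and -1.19 ± 0.68 in knockout cells (edgeR adjusted p = 0.9998), when 0.00640% and 0.0192% of 15635 genes were called lower. Leaving out 1 library moved these values, from -2.76 (without parental 1 at 42 °C) to -0.73 (without parental 1 at 37 °C) and from -1.74 (without 3xU at 42 °C) to -0.55 (without 3xU at 37 °C), and none was called. With the line as a block it was called in both, at -1.76 ± 0.22 (edgeR adjusted p = 0.00531, 0.761% of genes called in either direction) and -1.31 ± 0.15 (edgeR adjusted p = 0.000806, 6.77% called). Mir17hg ranked 58th from the bottom by fold change in parental cells and 134th in knockout cells. The ratio per base of the hairpins to Mir17hg changed by -0.0027 on the log2 scale over the 6 lines (exact permutation p = 1). Mir19b-1 held 0.52 to 3.11 CPM at 37 °C and 0 to 0.81 CPM after heat, at most 41 reads in a library, and was not called (edgeR adjusted p = 0.15 and 0.126 with the line as a block).

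**Figure D3:**
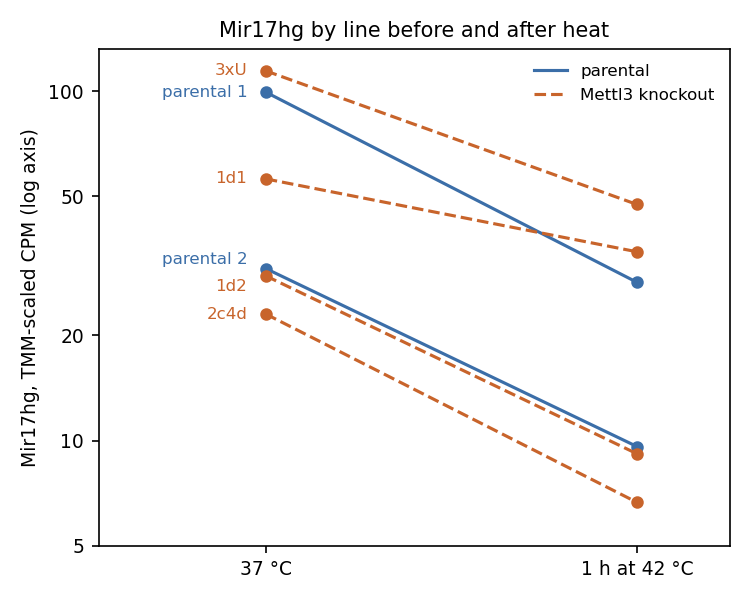
TMM-scaled CPM of Mir17hg on a log axis at 37 °C and after 1 h at 42 °C, with 1 line drawn per cell line, solid for parental and dashed for Mettl3 knockout cells. All 6 lines slope downward, from 23.0 to 114 CPM at 37 °C to 6.65 to 47.4 CPM after heat.

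No difference in Mir17hg between Mettl3 knockout and parental cells was called. Mettl3 itself was at 20.5 to 40.7 CPM in the knockout lines and 60.3 to 71.4 CPM in parental cells, a log2 fold change of -1.23 ± 0.25 at 37 °C, so transcript remained. Mir17hg differed between knockout and parental cells by -0.23 ± 0.81 at 37 °C (edgeR adjusted p = 0.924) and by 0.37 ± 0.85 after heat (edgeR adjusted p = 0.882), on the log2 scale. Of all genes 0.902% and 0.640% were called in these comparisons. The heat effect in knockout minus that in parental cells was 0.60 ± 1.17, or 0.45 ± 0.27 with the line as a block (edgeR adjusted p = 0.836), with 0% of genes called in the fit without the block. These errors are too wide to show that the levels were alike.

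On chromatin, the DGCR8 signal over the Mir17hg locus was among the highest in the genome. The 2 windows of the span are chr14:115040001-115045000, which holds all 6 hairpins and the first 611 bases of the RefSeq transcript, and chr14:115045001-115050000, which holds the remaining 1728 bases and no hairpin. They are called the upstream and the downstream window. Each chromatin comparison of DGCR8, DROSHA and DICER has 1 library per side, so there is no replicate check and no test, and the exact 95% intervals given cover counting error only. Ratios are log2 of depth-scaled counts with a pseudocount of 1, ranked among autosomal and X windows with at least 50 counts in the pair.

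With disuccinimidyl glutarate (DSG), a longer crosslinker, added to formaldehyde, DGCR8 gave 9344 counts in the downstream window. Its input held 43 counts there (0.970 CPM, against 194 CPM). The log2 ratio was 7.61 (interval 7.21 to 8.11), the 2nd highest of 445906 windows, of which 19.1% were at least 2-fold above input. The highest was a window of the miR-290 cluster (Mir293, Mir294 and Mir295). The rank of 2nd over input recurred in the further DGCR8 sets below, in wild type cells and at 37 °C. With formaldehyde alone the window held 213 counts, a log2 ratio of 2.66 (2.22 to 3.21), 71st of 404166 windows, 10.2% of which were at least 2-fold above input. This library's column was identified by elimination. DROSHA gave 1209 counts against 71 in the input of untagged cells, a log2 ratio of 4.95 (4.65 to 5.36), 11th of 313128 windows (15.1% at least 2-fold above input), and 6 of the 10 windows above it overlap milk protein genes.

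DICER, which acts after the hairpin has left the nucleus, did not share the peak. It gave 116 counts against 71, a log2 ratio of -0.28 (-0.73 to 0.16), when 0.691% of windows were at least 2-fold above input. Set directly against DICER, DGCR8 was higher by 6.63 (6.38 to 6.92) and DROSHA by 5.23 (5.00 to 5.57) on the log2 scale, 2nd of 456308 and 9th of 394378 windows, of which 14.0% and 17.2% were at least 2-fold higher.

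Both windows of the span were above input, and the downstream window was the higher. The upstream window, with the hairpins, held 1484 counts in the DGCR8 DSG library and 85 in its input, a log2 ratio of 3.99 (3.69 to 4.34), and its level was 6.30-fold lower than that of the downstream window. For DROSHA the downstream window was 6.91-fold above the upstream one, whose log2 ratio to input was 1.70 (1.36 to 2.09). The hairpins end 495 bases before the downstream window, a short distance beside the 5 kb unit, so the summit within the windows is not resolved. The 20 flanking windows had medians of 2.13 CPM for DGCR8 with DSG and 2.15 CPM for DROSHA, and the nearest of them still held 12.6 and 9.84 CPM, just downstream of the span.

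**Figure D4:**
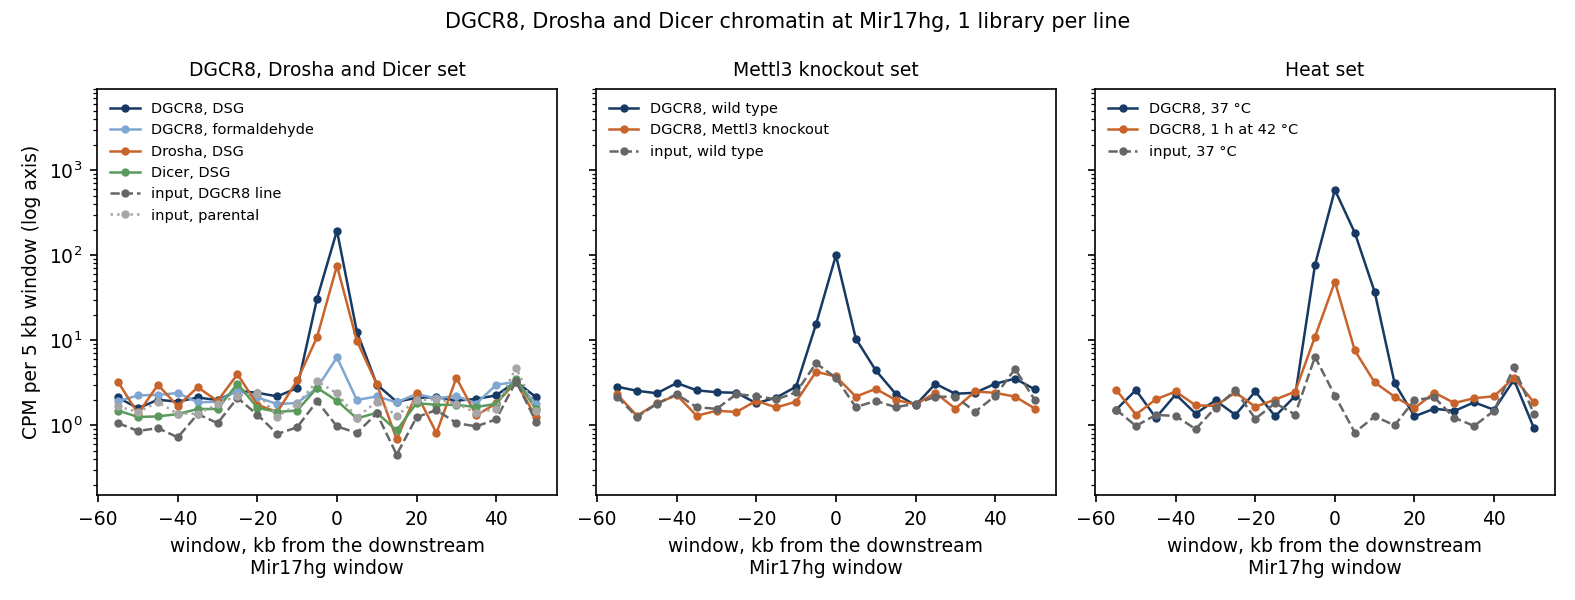
CPM per 5 kb window on a log axis against the distance in kb from the downstream Mir17hg window, which is at 0 (the upstream window is at -5), with 1 library per drawn line, for the set with DGCR8, Drosha and Dicer (left), the Mettl3 knockout set (middle) and the heat set (right). DGCR8 and Drosha peak at 0 (194 and 75.3 CPM in the left panel), Dicer lies near the inputs, and the knockout line in the middle panel stays near the level of the wild type input.

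A higher ratio in the window 3′ of the hairpins than in the window that holds them was also found at the X-linked paralogue, a comparison chosen after its values were seen. That cluster lies on the minus strand, and the window just past its 3′ end, chrX:52735001-52740000, held log2 ratios of 4.67 for DGCR8 with DSG (10th of 445906) and 5.44 for DROSHA (6th of 313128). The window of those hairpins held 2.43 and 2.27. At the Mir106b-25 hairpins inside Mcm7 the ratios were lower, 1.70 for DGCR8 and 0.60 for DROSHA.

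In a separate set DGCR8 was pulled down from cells with and without METTL3. The downstream window held 3011 counts in wild type cells and 95 in their input, 99.5 and 3.61 CPM, a log2 ratio of 4.77 (4.49 to 5.09) and the 2nd highest of 430053 windows (8.57% at least 2-fold above input). In Mettl3 knockout cells it held 81 counts, 3.75 CPM, near the level of the wild type input (log2 ratio 0.05, interval -0.39 to 0.50; 7.12% of windows at least 2-fold above input). Knockout over wild type was -4.71 (-5.07 to -4.41), 26.2-fold lower and the 2nd lowest of 439870 windows, of which 1.24% were at least 2-fold lower. The upstream window fell from 467 to 92 counts, a log2 ratio of -1.85 (-2.20 to -1.53). Each side is 1 library, so the line, the pulldown and the loss of METTL3 cannot be told apart, and no knockout input was used here.

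DGCR8 at the locus was lower in the heat library than in the 37 °C library. At 37 °C the downstream window held 11978 counts against 139 in its input, 587 and 2.24 CPM, a log2 ratio of 8.00 (7.79 to 8.29) and the 2nd highest of 391630 windows (16.4% at least 2-fold above input). After 1 h at 42 °C it held 3873 counts in a deeper library (79.3 against 20.4 in units of 1e6 counts), 48.8 CPM. That is still 4.44 (4.20 to 4.70) above the input at 37 °C on the log2 scale, but 1493rd of 482148 windows, 31.4% of which were at least 2-fold above input. Heat over 37 °C was -3.59 (-3.64 to -3.54), 12.0-fold lower and the 35th lowest of 478444 windows (4.15% at least 2-fold lower), while the median window stood at 0.28. The upstream window changed by -2.80 (-2.92 to -2.68). At 37 °C the highest of the 20 flanking windows held 184 CPM, above the upstream window (76.6 CPM), while the flank median was 1.72 CPM. With 1 library on each side and no input at 42 °C used here, heat, the pulldown and the depth cannot be told apart. Side by side, Mir17hg RNA was 3.50-fold and 3.23-fold lower after heat in the parental cells of the RNA set, whose genotype is that of these DGCR8 libraries.

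METTL3 was measured with replicates, and its signal over the downstream window was small beside that of DGCR8. In 2 clones the precipitates held 106 and 100 counts (input 24) and 127 and 91 counts (input 35), or 3.59, 3.79, 4.33 and 3.63 CPM against inputs of 1.11 and 2.54 CPM. All precipitates lay above both inputs. The log2 fold change was 1.17 ± 0.23 (edgeR adjusted p = 2.6e-05), when 13.3% of the 477127 windows tested were called higher and the median window stood at 0.26. It rested on the first input: without it the value was 0.59 and not called (edgeR adjusted p = 0.217). The clone was not in this fit, so the 2 precipitates of a clone counted as separate libraries. Over the input of their own clone, the precipitates stood at 1.65 and 1.73 in the first clone. In the second clone they stood at 0.75 and 0.50, on the log2 scale. The upstream window, with the hairpins, was at -0.30 (edgeR adjusted p = 0.32).

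The heat set gave a second measurement in samples named H4 and H5, names that the labels do not explain. At 37 °C the downstream window held 490 and 474 counts, 7.58 and 8.01 CPM, against 0.753 and 1.45 CPM in the inputs. The log2 fold change was 2.82 ± 0.34 (edgeR adjusted p = 0.00205), when 25.4% of 493877 windows were called higher and the median stood at 0.56. In the upstream window the inputs were themselves high, 7.84 and 5.18 CPM, beside 5.86 and 6.20 CPM in the precipitates, and the log2 fold change there was -0.11 (edgeR adjusted p = 0.82). Windows outside the span were called as well: the next 3 downstream at 2.51, 1.53 and 1.41, and on the other side the window before the upstream one at 1.21, among the 25.4% called of all windows.

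After heat the METTL3 precipitates held 2.83 and 3.51 CPM in the downstream window, below both 37 °C precipitates. The log2 fold change was -1.30 ± 0.31 (edgeR adjusted p = 0.732), and edgeR called 0 windows of 493877, 0%, lower at that threshold, with 12938 at an unadjusted p below 0.05. With H4 and H5 as a block it was -1.31 ± 0.23 (edgeR adjusted p = 0.0133), 1 of 1160 windows called, 0.235% of those tested. The upstream window was at -0.65 (edgeR adjusted p = 1). For METTL3, source names disagreed with titles in 4 of 6 libraries of the clone set, and in 6 of the 9 heat libraries, DGCR8 input included. Titles, which match the column names, were followed in both.

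**Figure D5:**
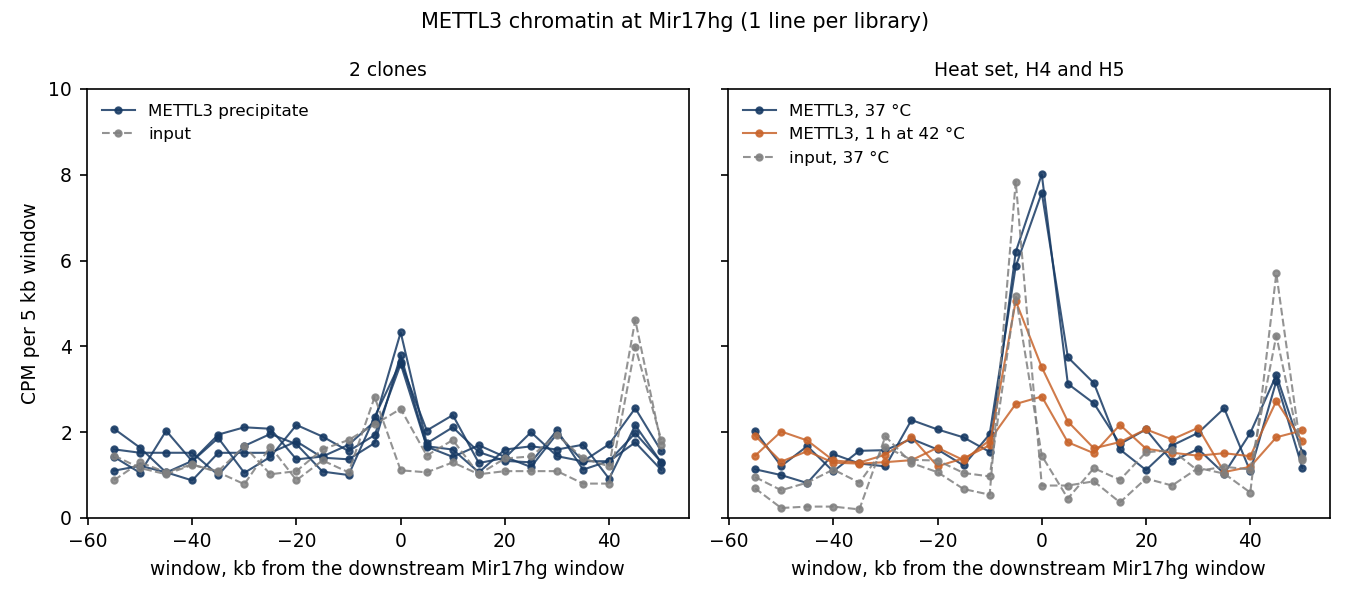
CPM per 5 kb window against the distance in kb from the downstream Mir17hg window, which is at 0 (the upstream window is at -5), with 1 drawn line per library, for METTL3 in 2 clones (left) and in the heat set (right). Precipitates at 37 °C peak at 0 (7.58 and 8.01 CPM on the right), those after heat reach 2.83 and 3.51 CPM there, and the inputs on the right are highest in the upstream window.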

How the data were processed

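The deposited RNA tables hold raw read counts per gene and the deposited chromatin tables raw read counts per 5 kb window, whole numbers with no rescaling. RNA was depleted of ribosomal RNA before ScriptSeq v2 library preparation, per the labels' protocols, and the submitters' processing notes name Bowtie as the aligner and mm10 as the build. For the annotation, counting strand and multimapped reads, settings are not given in the sources used here, so reads of paralogous hairpins could be split. Columns were matched to samples by title, and 0 columns were left unmapped. RNA groups were compared within each table with edgeR 4.0.16 (R 4.3.3): trimmed mean of M values, filterByExpr, 1 coefficient per group, quasi-likelihood test, Benjamini-Hochberg adjustment over all genes tested, threshold 0.05. METTL3 windows on autosomes and X that averaged 10 counts or more were tested with the edgeR quasi-likelihood test and Benjamini-Hochberg adjustment over those windows. There library totals over all windows served as library sizes, without scaling by the trimmed mean of M values. Fits were run on simulated data with the same spread for all genes and no differences between lines, unlike the heat set. Single-library ratios used a pseudocount of 1. The heat lines pair across temperatures by name, and deviations of the same line correlated at 0.476 to 0.742, so blocked values stand beside those results. Chromatin totals, in units of 1e6 counts, ran from 13.8 to 86.3. Named genes were those of the gene lists and the 5 nearest by likeness. The members and lists were chosen with earlier results of these data known. Alternatives were DESeq2 1.42.0, library totals alone, other filters, only the groups compared, replicate blocks, wider spans and leaving out libraries.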

Additional observations from a re-analysis of the deposited data

How the results depend on the processing

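The rise of Mir17hg with 4OHT kept its direction in all alternatives run and its call in all but 1: with only the groups compared in the fit, the DGCR8 line at 96 h gave 1.81 (edgeR adjusted p = 0.0699), a fit in which 4 libraries remain. Leaving out 1 library at a time gave 1.99 to 2.49, 1.90 to 2.14 and 1.62 to 2.00 in the DGCR8 line and 2.08 to 2.25, 1.72 to 2.17 and 1.88 to 2.54 in the Drosha line. Of the small Mir17hg differences between times and lines, none called, 96 h minus 24 h in the DGCR8 line (-0.67 to -0.18 without single libraries) and between lines at 96 h (-0.72 to -0.07) kept their sign in all alternatives run, and the others changed sign. Without single libraries these ran from -0.48 to 0.017 (48 h minus 24 h, DGCR8 line), -0.44 to 0.0052 (same, Drosha line), -0.28 to 0.38 (96 h minus 24 h, Drosha line), -0.18 to 0.33 (between lines, 24 h) and -0.16 to 0.27 (between lines, 48 h), and library totals alone gave -0.25 for 96 h minus 24 h in the Drosha line. For Mir19b-1 the same ranges were -0.42 to 0.0889 (48 h minus 24 h, DGCR8 line), -0.38 to 0.52 and -0.76 to 0.0359 (between lines, 48 and 96 h), and at 48 h library totals alone gave -0.0192 and DESeq2 -0.0020 between lines. In the heat set, knockout minus parental ran from -0.85 to 0.85 at 37 °C and -0.21 to 1.36 after heat for Mir17hg, and from -1.78 to 0.44 and -0.60 to 0.78 for Mir19b-1. The difference in heat effect ran from -0.46 to 1.58 and from -0.21 to 2.01. For heat itself the ranges were -2.76 to -0.73 (parental) and -1.74 to -0.55 (knockout), and the line block gave -1.76 and -1.31, and the H4 and H5 block -1.31 for METTL3. METTL3 over input in 2 clones ran from 0.59 to 1.79 without single libraries, and over the span with 1 window on either side it was 0.39 (0.12 adjusted p) and in the heat set 1.08 (0.0656). That wider span lowered the single-library ratios to 5.69, 1.46 and 3.51 (DGCR8 with DSG, DGCR8 with formaldehyde, DROSHA), 5.02 and 3.74 (DGCR8 and DROSHA over DICER), 3.29 and -3.40 (wild type over input, knockout over wild type) and 6.29 and 2.69 (37 °C and 42 °C over input). Centring on the median window gave 4.03 for 42 °C over input and -3.86 for 42 °C over 37 °C. The cause was not tested for any of these.

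Replicate numbers did not pair the floxed libraries: deviations of same-numbered libraries correlated at -0.324, 0.226 and 0.18 in the DGCR8 line and -0.034 and -0.113 in the Drosha line. With the replicate block Mir17hg stayed called in all 6 comparisons at 2.24, 2.02, 1.81, 2.16, 1.94 and 2.54, and the counts of genes called went from 15, 233, 2019, 30, 458 and 3854 to 7, 78, 1599, 54, 219 and 2057. With the numbers crossed where the correlation was below -0.1, chosen after seeing the data, the counts were 25, 482, 3004, 374, 1143 and 4162. Mir19b-1 and Mir18 hold few reads, and depth limits what can be said of them in the heat set.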
